A study of Mus musculus with 12 samples.

Results

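The genes described here are 10 transcription factors that act in the secretory and goblet cell lineages of the gut epithelium, namely Atoh1, Spdef, Gfi1, Creb3l1, Creb3l4, Foxa1, Foxa2, Foxa3, Klf4 and Bhlha15. They were chosen by name, with earlier results of these data known, and are 10 of the 55376 genes in the count table. Total RNA of the proximal colon was measured by RNA-Seq in 12 mice, with 1 library per animal. The controls were 6 EPR fl/fl mice, named flfl in the sample titles and wt in the genotype field, in which both alleles of the long noncoding RNA EPR carry loxP sites around the promoter and exon 1. The other 6 mice, EPR cKO, carry the same floxed alleles and in addition the CDX2P-NLS Cre transgene, a recombinase under a CDX2 promoter that is active in epithelial cells from the distal ileum to the colon. All 12 mice were 12 weeks old and came from lines crossed to C57BL/6. Their sex was not given in the sources used here, and as the controls lack the Cre transgene, an effect of Cre itself cannot be told apart from the loss of EPR. The proximal part of the colon was frozen whole, and every library thus holds RNA of muscle, connective tissue, vessels, nerves and immune cells beside that of the epithelium, in which Cre acts.

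Goblet cells make and secrete the mucus that covers the colon. Their precursors leave the absorptive path when Notch signalling is low, which releases the bHLH factor ATOH1 from repression by HES1, and ATOH1 then commits the cell to a secretory fate. GFI1, a zinc finger repressor downstream of ATOH1, keeps goblet and Paneth precursors from becoming enteroendocrine cells, while the ETS factor SPDEF drives the maturation of goblet cells. The FOXA forkhead factors and KLF4 act in goblet cell differentiation as well, FOXA1 and FOXA2 bind regulatory DNA of mucin genes, and CREB3L1, CREB3L4 and BHLHA15 (also named MIST1) equip cells for a high load of secreted protein.

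EPR, listed under the symbol Smim31, had counts of 297 to 1474 in the EPR fl/fl libraries and of 0 to 10 in the EPR cKO libraries, so the labels held in all 12. The total count per library was 13093904 to 33211041 and did not separate the groups (exact permutation p = 0.981). Levels are given below as CPM, the count divided by the library total and scaled to a common size by TMM, which corrects library sizes for a few dominant genes. A change is given as log2FC, the log2 of the fold change in EPR cKO relative to EPR fl/fl, with its standard error (SE). It was tested with edgeR's quasi-likelihood test, and p-values were adjusted by Benjamini-Hochberg over the 15952 genes that reached 1 CPM in at least 4 libraries. All 10 factors passed this filter, with at least 1 CPM in all 12 libraries. A gene was called at an adjusted p under 0.05.

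The 10 factors differed widely in level in control colon. Compared per length of transcript, as TPM, Klf4 stood highest with 215 ± 44.9 TPM in EPR fl/fl (SD, n = 6), above 97.7% of the tested genes. Spdef followed with 71.4 ± 21.3, Atoh1 with 47.0 ± 8.20, Creb3l1 with 41.7 ± 11.8 and Foxa3 with 33.3 ± 7.23 TPM. Creb3l4 (24.2 ± 6.22 TPM) and Foxa1 (23.8 ± 4.39 TPM) lay side by side. Foxa2 (5.47 ± 0.974 TPM), Gfi1 (4.31 ± 0.812 TPM) and Bhlha15 (0.855 ± 0.216 TPM) were scarce, and Bhlha15 lay above 7.25% of the tested genes. Klf4 and Spdef, Foxa1 and Foxa2, and Gfi1 and Bhlha15 were the neighbours in this order whose ranges over the 6 libraries did not overlap. All other neighbours overlapped in range, and Creb3l4 lay above Foxa1 in 3 of 6 libraries.

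Atoh1, Creb3l4 and Spdef fell in EPR cKO colon, and no factor was called higher with edgeR over all 12 libraries. These 3 of 10 factors compare with 2.46% of all tested genes called in either direction and 1.57% called lower, and the 0 of 10 called higher with 0.884%. As the factors were chosen with earlier results of these data known, this comparison is no independent evidence. In the same 3 factors every EPR cKO library lay below every EPR fl/fl library, as it did in 1.47% of all tested genes (2.47% were apart in either direction). At an unadjusted p under 0.05, 6 factors were lower and 0 higher, the other 3 being Foxa3, Creb3l1 and Foxa2. The direction was negative for 8 of 10 factors, against 7521 of the 15952 tested genes. The median log2FC over the 10 was −0.53, against 0.02 over all tested genes. The number of factors called lower was 1 with total counts in place of TMM, 4 with limma-voom, 5 with the DESeq2 Wald test and 5 with limma-voom quality weights, the last of which also called Klf4 higher. Of the 15952 tested genes, total counts called 247 lower and DESeq2 473 lower and 440 higher. Quality weights called 1891 lower and 1372 higher. At the stricter limits of the study, an adjusted p under 0.001 combined with a minimum fold, 27 genes were lower (0.169% of those tested) and none of the 10 factors was among them. Whole tissue was measured, so that fewer cells of a type and less RNA per cell cannot be told apart in any of these values.

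**Figure D1:**
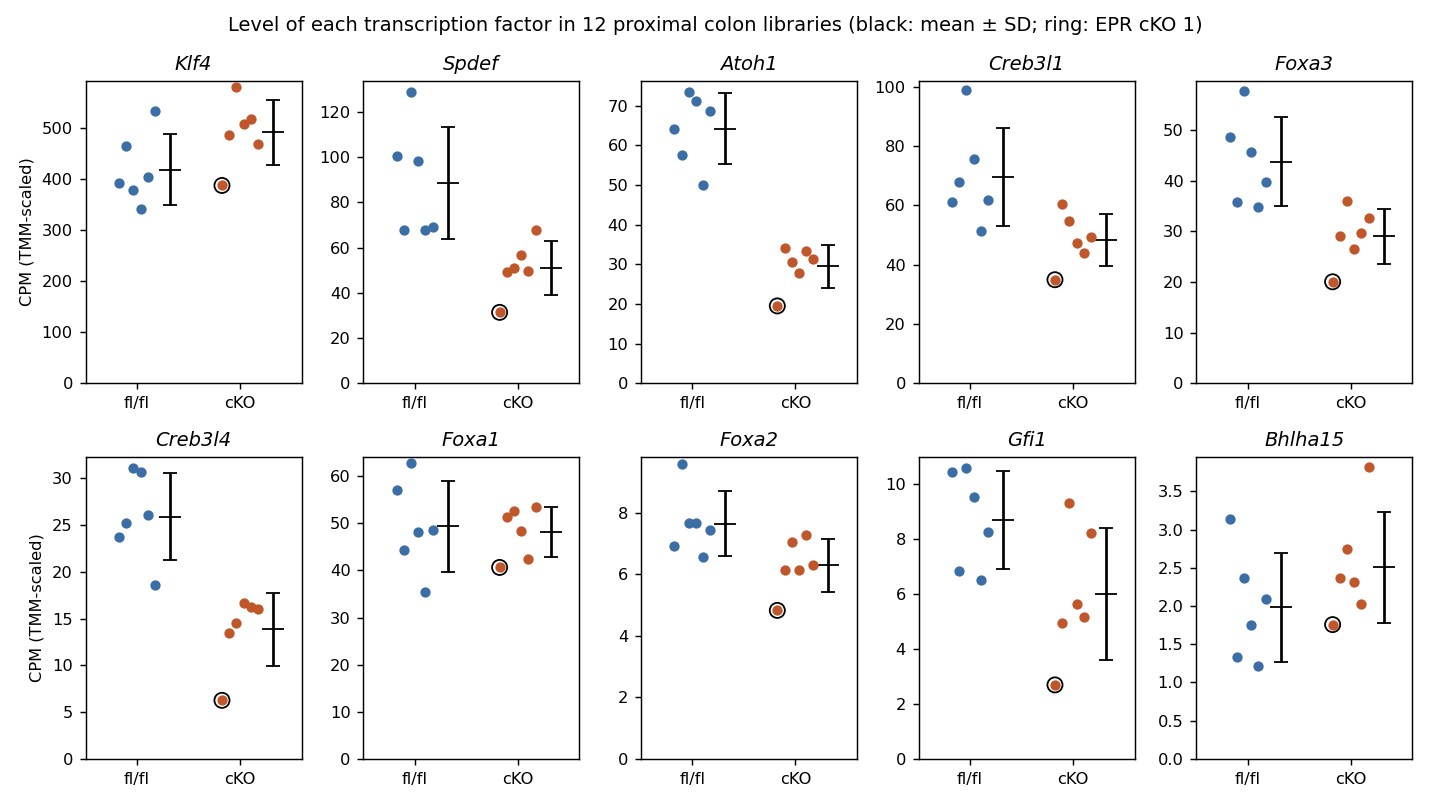
Level of each of the 10 factors in CPM (linear axes from 0) in the 6 EPR fl/fl (blue) and 6 EPR cKO (orange) libraries, 1 point per library, with mean ± SD in black and a ring around EPR cKO 1. In Atoh1, Spdef and Creb3l4 the groups do not overlap, in Klf4 and Bhlha15 the EPR cKO mean is above the control mean, and EPR cKO 1 is the lowest EPR cKO library in all 10 panels.

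One EPR cKO library stands apart and touches every value below. EPR cKO 1 had the lowest level of its group for each of the 10 factors. It also held the most smooth muscle RNA of all 12 libraries, 8502 CPM summed over 8 smooth muscle markers, against 919 to 2458 CPM in the other 5 EPR cKO libraries and 2815 to 4939 CPM in EPR fl/fl. Without EPR cKO 1, the factors called lower were 5, namely Atoh1, Creb3l4, Spdef, Foxa3 and Creb3l1. The same fit called 2273 genes lower over the whole table in place of 251. Without any one of EPR fl/fl 1, 3, 4 and 5 or EPR cKO 2 to 6, Atoh1 was the only factor called.

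The commitment factors came first in the comparison. Atoh1 ran from 49.99 to 73.5 CPM in EPR fl/fl, with a median of 66.3, and from 19.5 to 34.2 CPM in EPR cKO, with a median of 31.0. The groups were wide apart, since the highest EPR cKO library did not reach the lowest control. The mean went from 64.1 ± 8.95 to 29.5 ± 5.40 CPM, or 45.9% of the control mean, and the log2FC was −1.12 (SE 0.13, adjusted p = 0.000584). Atoh1 ranked 37th by p-value among the 15952 tested genes. It was called in all 10 alternatives with all libraries and in all 12 fits without 1 library, with adjusted p-values up to 0.0113. Of the 10 factors it came nearest to the limits of the study, and passed them when the tissue composition entered the fit (−1.32, SE 0.14, adjusted p = 0.000299) and when libraries were scaled to epithelial markers (−1.52, SE 0.17, adjusted p = 0.000340), which moved the median of all genes to −0.33.

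Spdef fell as well, with a call close to the threshold. Its level was 67.7 to 129 CPM in EPR fl/fl (median 83.8) and 31.4 to 67.6 CPM in EPR cKO (median 50.4). The groups were barely apart, with EPR cKO 6 next to the lowest control. The log2FC was −0.80 (SE 0.19, adjusted p = 0.0497). The call was kept in 8 of 10 alternatives (with total counts only, adjusted p = 0.0614), but in 3 of the 12 fits without 1 library, those without EPR fl/fl 2, EPR fl/fl 6 or EPR cKO 1. Without EPR fl/fl 4 the adjusted p rose to 0.127. The control level itself was uneven, with EPR fl/fl 3, 1 and 4 above the other three, and a coefficient of variation of 28.0% against 13.9% for Atoh1.

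Gfi1 spread too widely for a call. It measured 6.51 to 10.6 CPM in EPR fl/fl (median 8.90) and 2.69 to 9.30 CPM in EPR cKO (median 5.39). EPR cKO 3 and EPR cKO 6 lay within the control range, and the other 4 EPR cKO libraries lay below it. The log2FC of −0.54 (SE 0.25, adjusted p = 0.280) had a 95% interval of −1.09 to 0.01. Gfi1 was called under none of the 10 alternatives and in none of the 12 fits without 1 library, with adjusted p-values from 0.0606 to 0.445 in the former.

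The 3 factors that fell lie on different chromosomes. Their upstream sequence is shown because they moved together, with the 250 bases before each annotated start, 5′ to 3′ on the strand of the gene, from RefSeq (GRCm38.p6). The Atoh1 sequence is from chr6:64728875-64729124 (plus strand), the Spdef sequence from chr17:27728952-27729201 (minus strand), and the Creb3l4 sequence from chr3:90243513-90243762 (minus strand), before the outermost of its 3 annotated starts. Any letters in capitals would mark a match to one of 9 short motifs searched on both strands, and these 3 sequences held none. The matches given below for Creb3l4 lay before its other annotated starts, whose sequences are not shown.
Atoh1: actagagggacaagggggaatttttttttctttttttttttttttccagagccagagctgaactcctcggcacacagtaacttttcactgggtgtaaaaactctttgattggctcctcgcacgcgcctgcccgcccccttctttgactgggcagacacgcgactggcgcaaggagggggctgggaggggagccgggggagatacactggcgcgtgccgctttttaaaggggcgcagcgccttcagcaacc
Spdef: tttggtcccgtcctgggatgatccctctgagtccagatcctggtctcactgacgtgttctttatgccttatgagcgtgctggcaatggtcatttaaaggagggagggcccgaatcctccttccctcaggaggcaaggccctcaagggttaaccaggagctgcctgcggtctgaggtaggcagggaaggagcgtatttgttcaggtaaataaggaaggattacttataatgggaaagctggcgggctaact
Creb3l4: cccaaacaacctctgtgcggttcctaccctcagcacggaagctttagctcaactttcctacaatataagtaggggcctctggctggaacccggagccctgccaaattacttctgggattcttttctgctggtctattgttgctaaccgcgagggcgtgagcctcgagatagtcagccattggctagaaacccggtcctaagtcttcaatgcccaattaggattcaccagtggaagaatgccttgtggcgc

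The motifs were a first E-box, CAGCTG, another, written CATCTG, and a further one, CATATG, besides TGTTTAC for the FOXA factors, CCGGAT for SPDEF, CCACGTCA for CREB3-type factors, GGGNGTGG for KLF factors, AATCNCNGC for GFI1, and TATAAA for the TATA box. They were searched in 14 upstream sequences of 9 factors and in 32851 upstream sequences of the genome, while Creb3l1 had no entry in the table. The KLF letters were in 7 of the 14 sequences, belonging to Bhlha15, Creb3l4, Foxa2, Foxa3 and Gfi1, and in 15.9% of all upstream sequences. Foxa2 (3 annotated starts) and Gfi1 (2) each counted more than once. The KLF letters are rich in G, and these 7 sequences held 52.0% to 68.8% G and C, against a median of 52.4% over all. Whether the 7 exceed what their base content gives was not tested. CATCTG was found for Bhlha15 and Creb3l4 (14.4% of all), CAGCTG for Klf4 (13.0%) and TATAAA for Foxa2 and Foxa3 (12.4%). The GFI1 letters were found for Creb3l4 and Foxa2 (3.17%), the FOXA letters for Foxa1 (3.17%) and the SPDEF letters for Bhlha15 (4.94%). CATATG (3.46%) and CCACGTCA (0.563%) were in none of the 14. A match describes letters in this window and shows no binding.

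Of the factors that build secretory capacity, Creb3l4 fell and the others were not called. CREB3L1 and CREB3L4 are held in the endoplasmic reticulum membrane until they are cleaved, and their active parts then enter the nucleus. Creb3l4 ran from 18.6 to 31.0 CPM in EPR fl/fl (median 25.6) and from 6.26 to 16.7 CPM in EPR cKO (median 15.3). No EPR cKO library reached a control, and EPR cKO 1 lay far below the other 5 of its group. The mean fell from 25.9 ± 4.64 to 13.9 ± 3.91 CPM, a log2FC of −0.90 (SE 0.21, adjusted p = 0.0367). Without EPR cKO 1 it was −0.77 (SE 0.12, adjusted p = 0.00213). The call was kept in 8 of 10 alternatives (with total counts only, adjusted p = 0.0538) and in 2 of 12 fits without 1 library, those without EPR fl/fl 6 or EPR cKO 1, and the adjusted p without EPR fl/fl 4 was 0.106.

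Creb3l1 measured 51.3 to 98.8 CPM in EPR fl/fl (median 65.0) and 34.9 to 60.4 CPM in EPR cKO (median 48.2). Its groups overlapped, with 1 control below the 2 highest EPR cKO libraries. The log2FC was −0.52 (SE 0.16, adjusted p = 0.106), with a 95% interval of −0.86 to −0.18, and the gene was called in 3 of 10 alternatives and without EPR cKO 1 (adjusted p = 0.0354). Bhlha15, a bHLH factor of secretory cells such as the acinar cells of the pancreas, was near the detection limit with 1.22 to 3.14 CPM in EPR fl/fl (median 1.92) and 1.76 to 3.82 CPM in EPR cKO (median 2.34). The groups overlapped over most of their range. Its log2FC was 0.34 (SE 0.26, adjusted p = 0.496), and the 95% interval of −0.22 to 0.90 held both a small fall and a marked rise. On the scale of epithelial markers it was −0.06.

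Plasma cells, which also express Bhlha15, were present in all libraries. The summed level of 9 plasma cell markers was 639 to 1410 CPM in EPR fl/fl and 560 to 1595 CPM in EPR cKO, with a median log2FC of 0.16 and 0 of 8 tested markers called with edgeR, limma-voom or DESeq2 (0 at an unadjusted p under 0.05 with edgeR). Of 8 pancreatic acinar markers, 7 were too low for the test and reached at most 1.36 CPM, with counts of 0 in at least 1 library. Only Cela1 passed the filter, at 26.4 ± 3.76 and 40.0 ± 8.39 CPM, and made up nearly all of the summed level. Its log2FC was 0.60 (SE 0.15, adjusted p = 0.0548), and it was called higher without EPR cKO 1, with the replicate block, with DESeq2 and with quality weights. Whether plasma cells contributed to the level of Bhlha15 was not tested.

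The 3 FOXA factors are paralogues that open chromatin for other regulators. None of them was called in the edgeR fit with TMM and no covariate over all 12 libraries. Foxa3 measured 34.8 to 57.8 CPM in EPR fl/fl (median 42.7) and 20.0 to 36.1 CPM in EPR cKO (median 29.3), and the groups met at EPR cKO 3, which was above the 2 lowest controls. The log2FC was −0.59 (SE 0.15, adjusted p = 0.0604), just short of a call in that fit. Foxa3 was past the threshold in 5 of 10 alternatives. Among them were limma-voom (adjusted p = 0.0482), DESeq2 (0.00748), and edgeR with the composition covariate (0.0478) or scaled to epithelial markers (0.0158). It was also called with edgeR without EPR cKO 1 (0.0136). Foxa1 measured 35.4 to 62.8 CPM in EPR fl/fl (median 48.3) and 40.6 to 53.4 CPM in EPR cKO (median 49.9), with all EPR cKO libraries inside the control range. Its log2FC was −0.04 (SE 0.13, adjusted p = 0.889), and the 95% interval ran from −0.31 to 0.23. Foxa2 went from 6.58 to 9.59 CPM (median 7.57) to 4.83 to 7.28 CPM (median 6.24), with 4 controls above all EPR cKO libraries and a log2FC of −0.28 (SE 0.13, adjusted p = 0.268).

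The difference between Foxa3 and Foxa1 was tested within each library, where the scaling of libraries cancels. The log2 ratio of their counts was −0.30 to −0.02 in EPR fl/fl and −1.02 to −0.52 in EPR cKO. The groups did not overlap. The mean went from −0.17 ± 0.12 to −0.75 ± 0.19, a difference of −0.57 (two-sided exact permutation p = 0.00216, the smallest that 6 against 6 libraries allow, and 0.0173 adjusted over 8 ratios chosen after values were seen). With any 1 library left out the difference ran from −0.62 to −0.52. The direction of this ratio was known from the fold changes, so its p-values are descriptive. EPR cKO 1 was the lowest library in this ratio, as in the levels. Foxa3 against Foxa2 (−0.31, exact p = 0.0823, adjusted 0.0940) and Foxa2 against Foxa1 (−0.26, exact p = 0.139, adjusted 0.139) missed the threshold.

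The sequences before the starts of Foxa3 and Foxa1 are shown because these paralogues differed in the within-library test. The Foxa3 sequence is from chr7:19023540-19023789 and the Foxa1 sequence from chr12:57546112-57546361, both on the minus strand and both 250 bases from RefSeq (GRCm38.p6). Capitals mark the KLF letters and the TATA box in Foxa3, and the FOXA letters on the opposite strand in Foxa1.
Foxa3: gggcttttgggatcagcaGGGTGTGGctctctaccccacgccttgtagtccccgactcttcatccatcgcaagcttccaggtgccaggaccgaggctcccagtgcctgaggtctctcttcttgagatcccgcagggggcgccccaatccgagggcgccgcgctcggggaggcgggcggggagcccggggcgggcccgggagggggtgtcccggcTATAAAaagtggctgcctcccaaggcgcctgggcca
Foxa1: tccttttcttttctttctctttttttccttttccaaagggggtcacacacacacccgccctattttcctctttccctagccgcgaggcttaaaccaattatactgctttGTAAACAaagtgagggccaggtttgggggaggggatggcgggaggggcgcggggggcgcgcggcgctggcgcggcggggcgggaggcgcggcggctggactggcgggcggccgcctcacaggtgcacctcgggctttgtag
In Foxa3 the TATA box begins 36 bases before the start, and the KLF letters 232 bases before it. The FOXA letters of Foxa1 begin 141 bases before its start.

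Klf4, a zinc finger factor of differentiated colonic epithelium, was the most abundant of the 10 and was not called. It measured 341 to 533 CPM in EPR fl/fl (median 398) and 387 to 580 CPM in EPR cKO (median 497). Both groups covered much the same range, and the EPR cKO mean of 491 ± 63.6 was above the control mean of 418 ± 68.8 CPM. The log2FC of 0.23 (SE 0.12, adjusted p = 0.319) had a 95% interval of −0.02 to 0.49. It was called higher in 1 of 10 alternatives, limma-voom with quality weights (0.33, adjusted p = 0.0423). It changed sign to −0.11 when libraries were scaled to epithelial markers, a scaling that moved the median of all genes to −0.33, and relative to that median Klf4 stayed above it.

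**Figure D2:**
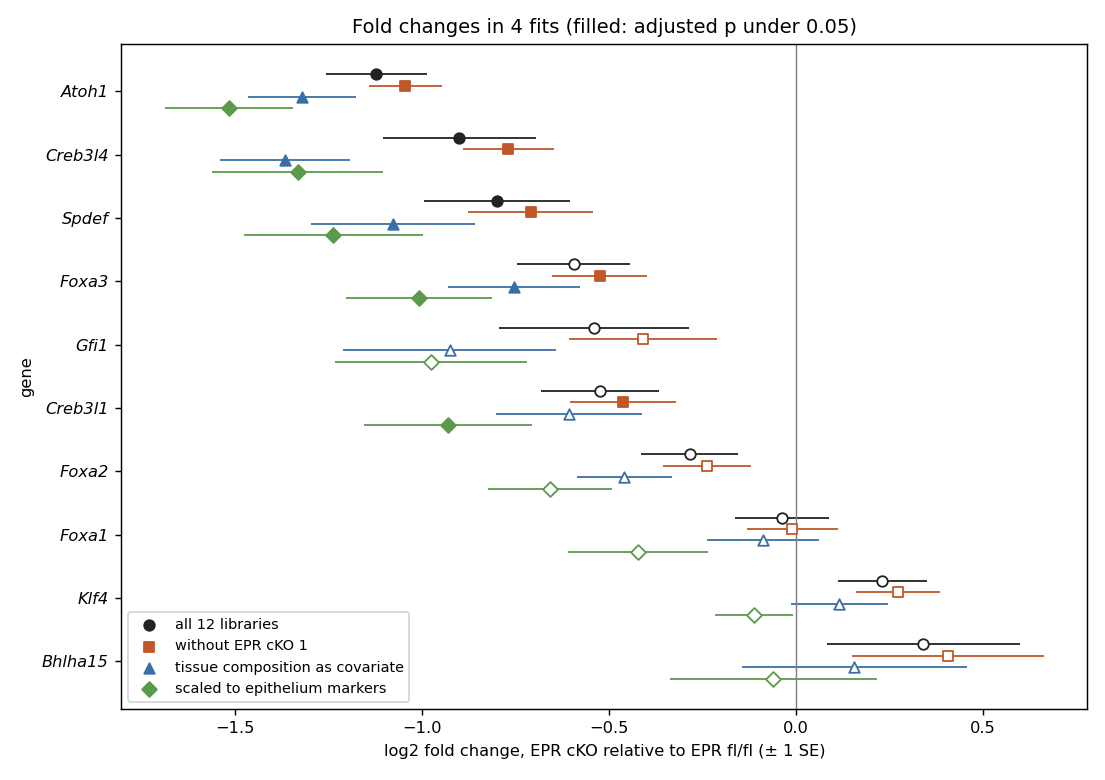
Log2FC ± 1 SE of each factor in 4 fits, with filled symbols where the adjusted p was under 0.05. Atoh1, Creb3l4 and Spdef are filled in all 4 fits, Foxa3 in 3 and Creb3l1 in 2, while Klf4 and Bhlha15 sit right of 0 in all fits except the scaling to epithelial markers.

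The share of muscle and epithelium differed between libraries. A composition score, the mean log2 CPM of 8 smooth muscle markers less that of 8 epithelial markers, was −2.13 to −1.39 in EPR fl/fl. In EPR cKO it was −4.15 to −2.48 in 5 libraries and −0.35 in EPR cKO 1. By this score 5 had less muscle relative to epithelium than any control, and 1 had more. The summed epithelial markers alone overlapped between the groups. The means, −1.70 ± 0.27 and −2.89 ± 1.40, did not differ past the threshold (two-sided exact permutation p = 0.0801), but did without EPR cKO 1 (difference −1.69, exact p = 0.00216). All 8 epithelial markers had positive log2 fold changes (median 0.30, 0 called, 4 at an unadjusted p under 0.05 with edgeR, and 1 called with DESeq2), and their sum was 7191 to 11323 CPM in EPR fl/fl and 8956 to 13803 CPM in EPR cKO. Of the 8 smooth muscle markers, 7 had negative fold changes (median −0.48, 0 called with edgeR or DESeq2, 0 at an unadjusted p under 0.05 with edgeR, and 8 called without EPR cKO 1).

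The goblet factors were then fitted beside this score. With the composition score as a covariate the log2FC was −1.32 for Atoh1, −1.37 for Creb3l4 (adjusted p = 0.00104), −1.08 for Spdef (0.0226) and −0.75 for Foxa3 (0.0478), and all 4 were called. For these 4 factors the values were further below 0 than in the fit without the covariate. EPR cKO 1 had both the outlying score and the lowest levels of its group. With that library left out and no covariate, the values were smaller in size. They were −1.04 for Atoh1, −0.77 for Creb3l4, −0.71 for Spdef and −0.53 for Foxa3. How far EPR cKO 1 set the effect of the covariate was not tested. Creb3l1 was not called with it (−0.61, adjusted p = 0.144). Scaled to the epithelial markers, Creb3l1 was called as well (−0.93, adjusted p = 0.0444), but this scaling lowers the values of all genes alike, with a median over all genes of −0.33.

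**Figure D3:**
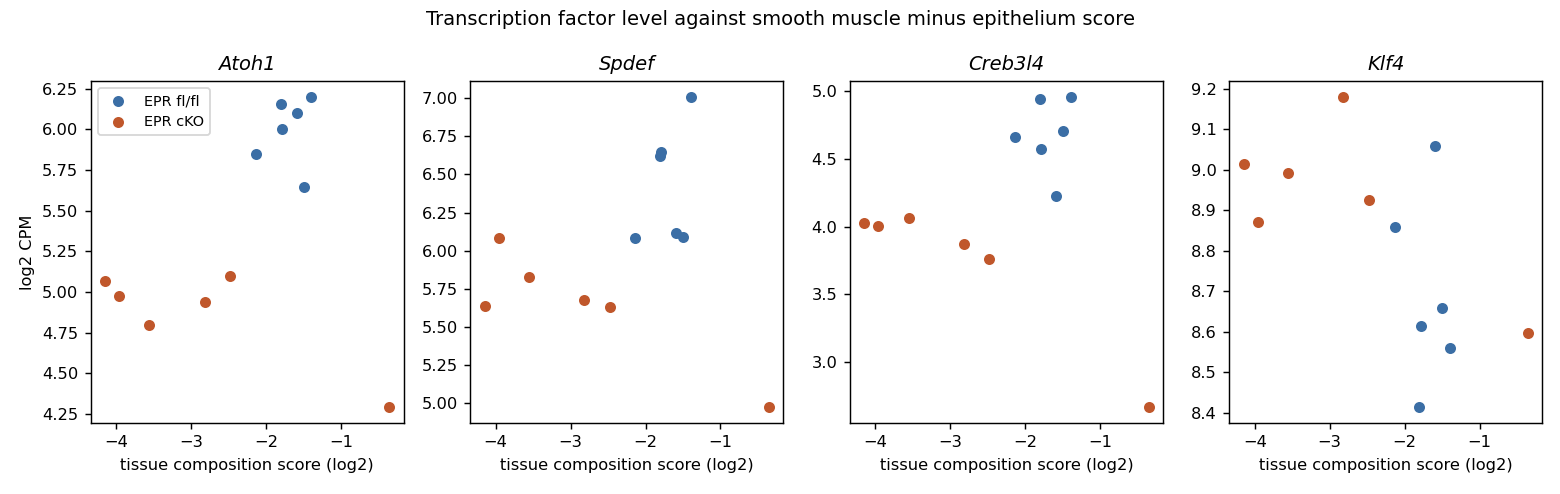
Log2 CPM of Atoh1, Spdef, Creb3l4 and Klf4 (vertical) against the composition score (horizontal, smooth muscle less epithelium, log2), 1 point per library. In EPR cKO (orange), 5 points lie at −4.15 to −2.48, left of all controls (blue), with lower Atoh1, Spdef and Creb3l4, and EPR cKO 1 lies alone at −0.35.

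Markers of the remaining cell types gave few differences. With edgeR, 0 of the 7 endothelial, 7 fibroblast, 6 T cell, 8 macrophage, and 6 enteric neuron and glia markers were called, as with limma-voom and DESeq2, and 1, an endothelial marker, was lower at an unadjusted p under 0.05. Without EPR cKO 1, 4 endothelial, 2 fibroblast, 2 macrophage, and 4 enteric neuron and glia markers were called lower. Their summed CPM in EPR fl/fl and EPR cKO was 62.3 to 73.1 and 31.5 to 104 for endothelium, 903 to 1642 and 456 to 2934 for fibroblasts, 36.2 to 103 and 44.3 to 81.0 for T cells, 115 to 317 and 100 to 222 for macrophages, and 19.2 to 36.8 and 8.76 to 67.4 for enteric neurons and glia. Neutrophil markers were near 0, with at most 2.52 CPM summed over 5 genes, and S100a8, S100a9, Cxcr2 and Mmp8 had a count of 0 in at least 1 library.

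Products of goblet cells fell beside the factors. Of 13 goblet products, 7 were called lower and 0 higher with edgeR, with a median log2FC of −0.82. Agr2 (−0.59), Fcgbp (−0.79), Spink4 (−0.49), Retnlb (−1.94) and Ern2 (−0.69) were lower without a call. Guca2a alone went the other way (0.46, adjusted p = 0.0709), and DESeq2 and limma-voom each called it higher. Muc2, the gel-forming mucin of the colon, ran from 4072 to 14561 CPM in EPR fl/fl (median 7521) and from 1071 to 2023 CPM in EPR cKO (median 1869), without overlap and with a log2FC of −2.19 (SE 0.27, adjusted p = 0.000741). Clca1, a metalloprotease of mucus, fell by 1.36 on the log2 scale (SE 0.28, adjusted p = 0.0240). Its call was lost with the composition covariate (−1.12, adjusted p = 0.127) and with the replicate block (−1.38, adjusted p = 0.0676). The call was also lost in 5 fits without 1 library, those without EPR fl/fl 1 or 3 or EPR cKO 3, 5 or 6 (adjusted p = 0.0503 to 0.0650). Rep15 (−1.20), Sytl2 (−0.96) and Capn9 (−0.84) fell without overlap of the groups, as did the trefoil peptide Tff3 (−0.53, adjusted p = 0.0170). Zg16, a lectin of mucus, fell by 0.82 on the log2 scale, with overlap at EPR cKO 5. Tff3 and Zg16 each lost the call in some fits without 1 library, and the list had 4 lower calls without EPR cKO 3, and 11 lower and 1 higher without EPR cKO 1. Members of this list are known goblet genes and several were named by the study for these samples, so that their direction is no independent evidence.

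Muc2 was lower relative to Spdef and Atoh1 too. These ratios were chosen after the fold changes were seen, so their direction was known and their p-values are descriptive. The log2 ratio of Muc2 to Spdef counts was 5.90 to 6.82 in EPR fl/fl and 4.43 to 5.97 in EPR cKO, with EPR cKO 1 the only EPR cKO library above the lowest control. The mean went from 6.43 ± 0.33 to 5.11 ± 0.54, a difference of −1.32 (two-sided exact permutation p = 0.00433, 0.0173 adjusted over 8 ratios). Muc2 against Atoh1 went from 6.87 ± 0.46 to 5.89 ± 0.53, a difference of −0.98 (exact p = 0.00649, adjusted 0.0173). The ratios among the factors were less clear. Gfi1 relative to Atoh1 was higher by 0.52 (exact p = 0.0260, adjusted 0.0519), Spdef relative to Atoh1 by 0.34 (exact p = 0.0519, adjusted 0.0693), and Creb3l4 relative to Creb3l1 was lower by 0.44 (exact p = 0.0519, adjusted 0.0693). None of these 3 passed the threshold after adjustment.

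**Figure D4:**
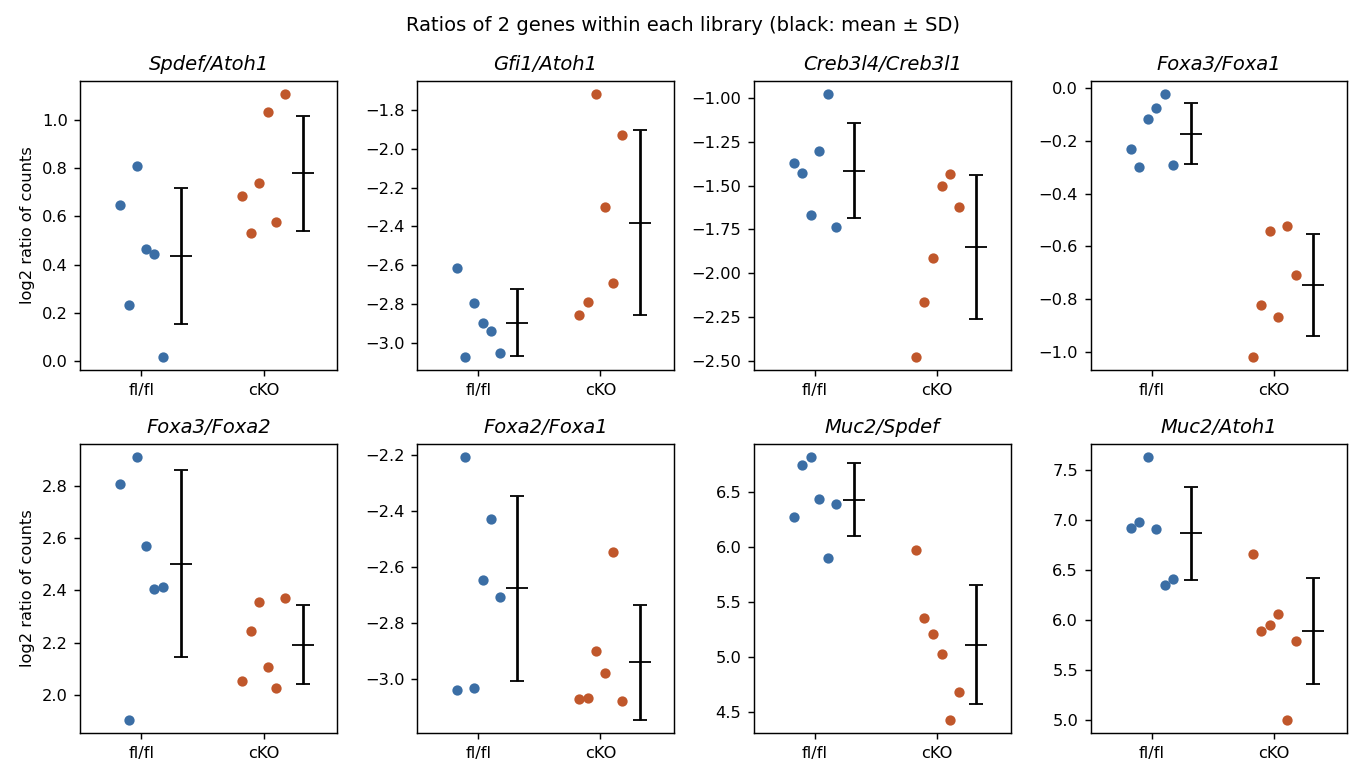
Log2 ratio of the counts of 2 genes within each library, for 8 pairs, with points for the 6 EPR fl/fl (blue) and 6 EPR cKO (orange) libraries and mean ± SD in black. Foxa3/Foxa1 separates the groups, Muc2/Spdef and Muc2/Atoh1 overlap through EPR cKO 1, and the other 5 overlap more widely. The vertical axes do not start at 0.

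Upstream of Atoh1, the Notch pathway gave no calls with edgeR over all 12 libraries. Of 14 tested Notch genes, 0 were called in either direction with edgeR, with limma-voom or with DESeq2, 3 were higher and 0 lower at an unadjusted p under 0.05 with edgeR, and the median log2FC was −0.13. Hes1, the repressor of Atoh1, measured 23.1 to 48.6 CPM in EPR fl/fl (median 33.1) and 40.2 to 56.6 CPM in EPR cKO (median 48.5). Its log2FC was 0.49 (SE 0.15, adjusted p = 0.116), and the gene was called without EPR cKO 1 (0.51, adjusted p = 0.0346) and with limma-voom quality weights (adjusted p = 0.0337). The ligand gene Jag1 (0.36, adjusted p = 0.165) and the target Hey1 (−0.27, adjusted p = 0.727) were the next in size. Jag1 was called in the same fits as Hes1, without EPR cKO 1 (0.38, adjusted p = 0.0456) and with quality weights (0.47, adjusted p = 0.0142). In all, these 2 fits called 2 and 3 Notch genes higher and 1 lower.

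Factors of the enteroendocrine lineage, which also depends on Atoh1, gave no calls with edgeR over all 12 libraries. Of 10 tested enteroendocrine factors, 0 were called with edgeR or limma-voom, 1 was higher and 0 lower at an unadjusted p under 0.05 with edgeR, and the median was 0.17. Neurog3, which commits secretory precursors to the enteroendocrine fate and acts downstream of Atoh1, was listed at 0.358 to 0.778 CPM in EPR fl/fl and 0.439 to 2.12 CPM in EPR cKO. Its log2FC was 1.31 (SE 0.33, adjusted p = 0.0616), and DESeq2 called it (adjusted p = 0.0215), as did the fit without EPR cKO 1 (1.45, adjusted p = 0.00399). These levels are low, and the groups overlapped. No EPR fl/fl library reached 1 CPM, so Neurog3 passed the filter only through EPR cKO libraries, where its mean was higher. The filter could thus admit a rise of this gene but not a fall from the same low level, and its calls cannot decide whether it rose. Without the low-count filter the log2FC was still positive, and edgeR did not call the gene. Lmx1a (0.50, adjusted p = 0.284) and Insm1 (0.43, adjusted p = 0.365) were not called.

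Tuft and crypt base factors gave 0 calls of 5 tested with edgeR, limma-voom and DESeq2, and 0 at an unadjusted p under 0.05, with a median of −0.10. Sox4 (0.26), Sox9 (−0.24) and Ascl2 (0.19) were the furthest from 0. Of 13 factors of intestinal identity, 0 were called and 4 were higher at an unadjusted p under 0.05 with edgeR, and 2 were called higher with DESeq2, Hnf4a and Hnf4g. Without EPR cKO 1, Hnf4a, Cdx2 and Cdx1 were called higher. Hnf4g (0.41, adjusted p = 0.0986), Hnf4a (0.32, adjusted p = 0.0855) and Cdx2 (0.30, adjusted p = 0.204) were the furthest from 0 (Hnf4a and Cdx2 lay below 0 on the scale of epithelial markers), and the median of the list was 0.14. The median of the 11 CREB3 and KLF relatives was 0.15. Among the latter, 0 were called and 3 were higher at an unadjusted p under 0.05 with edgeR, and DESeq2 called Klf13 higher. Klf15 (−1.02, adjusted p = 0.295), Klf10 (0.47, adjusted p = 0.131) and Klf2 (−0.44, adjusted p = 0.465) stood furthest from 0, with wide spread in EPR cKO for Klf15 and Klf2. Without EPR cKO 1, 2 relatives were called lower, Klf15 (−1.69, adjusted p = 0.00825) and Creb3l2. In the same fit 2 were called higher, Klf10 (0.48, adjusted p = 0.0471) and Klf13. Over the whole table that fit called 2273 genes lower and 1178 higher. Quality weights called Klf15 (adjusted p = 0.0113), Klf10 (adjusted p = 0.0412) and Klf13.

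The regulators of the unfolded protein response, which secretory cells rely on, gave no calls in the edgeR fit with TMM and no covariate over all 12 libraries. Scaled to epithelial markers, edgeR called 2 lower, Ern2 and Xbp1. Of 8 tested, 0 were called and 1 was lower at an unadjusted p under 0.05 with edgeR, and the median was 0.01. That gene was Ern2, a sensor of mucus-making epithelia, at −0.69 (SE 0.19, adjusted p = 0.0866), and DESeq2 called it (adjusted p = 0.0167), as did the fit without EPR cKO 1 (adjusted p = 0.0284). Xbp1 (−0.19, adjusted p = 0.277) and Atf6b (0.10) followed in size.

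**Figure D5:**
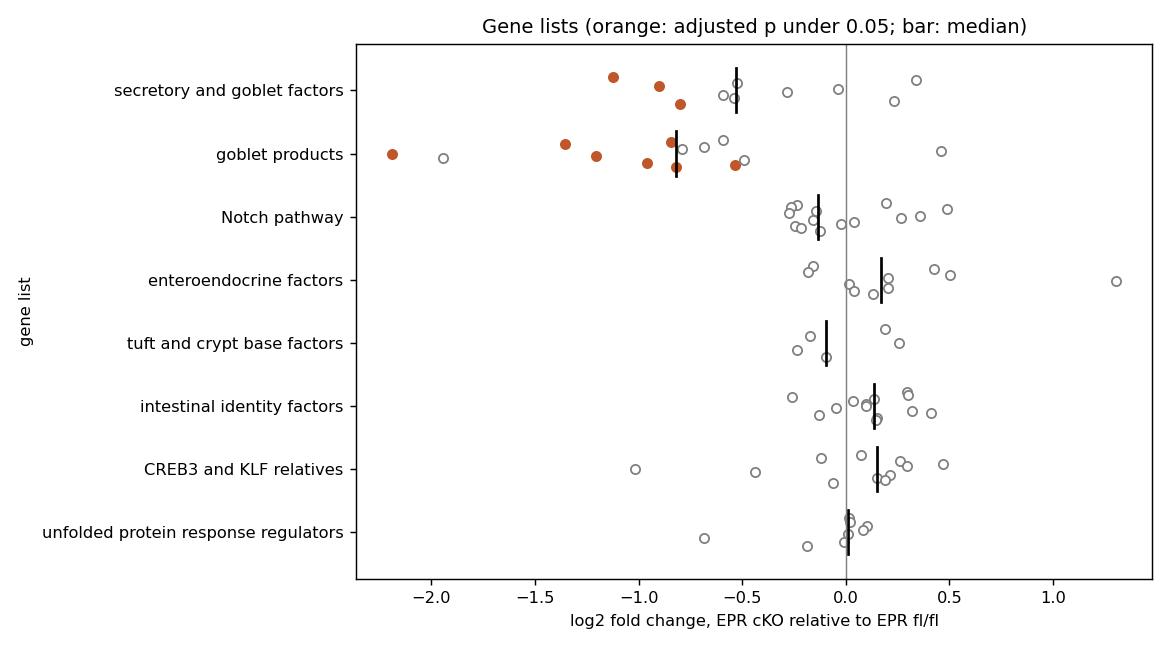
Log2FC of each tested gene in 8 lists, with orange points for an adjusted p under 0.05 and a black bar at the median. Calls lie in the secretory and goblet factors (3 of 10, median −0.53) and the goblet products (7 of 13, median −0.82), and the other 6 lists have none and medians from −0.13 to 0.17.

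The genes most like each factor were found by Pearson's r of log2 CPM over the 12 libraries, which share genotype, composition and depth differences, and are given as a description. Atoh1 was closest to Hgfac (0.98), Tspan13 (0.98) and Plet1 (0.98), all of which were called lower. After the group means were removed, these values were 0.87, 0.88 and 0.85. Spdef was closest to Fam174b (0.98), Edem3 (0.98) and Cd24a (0.97), and the closest gene to Foxa3 was Spdef itself (0.95), ahead of Edem3 and Fam174b. Creb3l4 was closest to P2rx4 (0.97), C1galt1 (0.97) and Pycr1 (0.97), of which C1galt1 adds galactose to mucin sugars. Creb3l1 followed Adgrg1 (0.96), Hid1 (0.95) and D630039A03Rik (0.94), and Gfi1 followed Galnt12 (0.94), Gne (0.93) and Kcnk6 (0.92).

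Foxa1, Foxa2, Klf4 and Bhlha15 had other neighbours. Foxa1 was closest to Jarid2 (0.90), Nr5a2 (0.89) and Desi1 (0.88), none of which differed between the groups past the threshold. Foxa2 was closest to Galnt6 (0.91), Ada (0.90) and St6galnac2 (0.87). Klf4 was closest to Sval1 (0.92), Areg (0.90) and Coq4 (0.89), and Bhlha15 to Urb1 (0.92), Phrf1 (0.92) and Adgrg7 (0.92). Among the 10 factors themselves, with group means removed, Gfi1 and Foxa3 (0.91), Spdef and Foxa3 (0.88) and Foxa1 and Bhlha15 (0.86) went together most closely, and Klf4 showed values from −0.11 with Spdef to 0.57 with Foxa2.

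The counts of the 10 factors could be read without overlap problems. In mm10, Atoh1 lies at chromosome 6, 64729125 to 64731245, Spdef at chromosome 17, 27714352 to 27728955, Gfi1 at chromosome 5, 107716657 to 107725805, and Klf4 at chromosome 4, 55527143 to 55532466. Creb3l1 lies at chromosome 2, 91982328 to 92024502, Creb3l4 at chromosome 3, 90237500 to 90243512, and Bhlha15 at chromosome 5, 144190286 to 144194441. Foxa1 lies at chromosome 12, 57540628 to 57546121, Foxa2 at chromosome 2, 148042877 to 148046969, and Foxa3 at chromosome 7, 19013284 to 19023538. Exons of no other gene, on either strand, covered any of their exon bases. Short stretches of sequence shared with other transcripts made up 1.05% of Gfi1, 0.321% of Bhlha15 and 0.263% of Klf4, and 0% of the other 7.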

How the data were processed

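Counts per gene were deposited by the authors as raw read counts, neither normalized nor filtered. As stated in the methods and per the labels, reads of ribosome-depleted, stranded libraries were trimmed, aligned to mm10 with STAR 2.5.3a and counted with featureCounts. The strand setting of the counting was not given in the sources used here. Every one of the 12 columns was matched by name to its sample (0 unmatched). Genes with at least 1 CPM in at least 4 libraries were tested in R 4.3.3 with edgeR 4.0.16 (TMM, glmQLFit and glmQLFTest, no covariate, Benjamini-Hochberg over 15952 of 36694 genes with any count). The SE was the log2 fold change divided by the square root of F. Log2 CPM values had a prior count of 2. TPM was computed from the counts and the exon lengths in the table. Single measures and ratios were compared by two-sided exact permutation tests over all assignments of 6 of the 12 libraries. Alternatives were DESeq2 1.42.0, limma 3.58.1 (voom, with and without quality weights), other scalings and filters, a replicate block, a composition covariate and leaving out each library. Upstream sequences and gene positions came from RefSeq and GENCODE tables of GRCm38. Precision is limited by 6 animals per group and a common biological variation of 26.1%. Within groups no library was a repeat of another. The replicate numbers were treated as names of the samples. The factors and lists were chosen with earlier results of these data known. Named genes were all 10 factors, the called genes of each list or otherwise up to 3 with the largest change, and the 3 genes most like each factor. The 8 ratios were chosen after values were seen. Replicates are separate animals.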

Additional observations from a re-analysis of the deposited data

Results flagged for a closer look

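Single libraries were checked against their own group for the levels and ratios reported, in 38 sets of 6 libraries, of which 3 had a library far from the others by Dixon's criterion at 95%. Chance flags about 1 in 20 sets, or 1.9 of 38. For Creb3l4, EPR cKO 1 measured 6.26 CPM, against 13.5 CPM in the next library of its group. For Foxa2, EPR fl/fl 2 measured 9.59 CPM, against 7.68 CPM in the next. For the log2 ratio of Foxa2 to Foxa1, EPR cKO 5 measured −2.55, against −2.90 in the next.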

How the results depend on the processing

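The fall of Atoh1 was called under all 10 alternatives with all libraries and in all 12 fits without 1 library, and the other calls moved with the setting. Of the 10 factors, those called lower were 3, and 1 with total counts only, 5 with the DESeq2 Wald test, 5 with limma-voom quality weights (with 1 called higher) and 5 when scaled to epithelium markers. Without 1 library they ranged from 1 to 5, the 5 without EPR cKO 1. At the limits of the study, 0 factors were past both, and 1 with the composition covariate or with the scaling to epithelium markers. Over all genes, 251 were lower and 141 higher, and these counts were 473 and 440 with DESeq2, 1891 and 1372 with quality weights, and 403 and 7 when scaled to epithelium markers. Genes called higher numbered 39 with total counts only, 54 without the low-count filter and 81 with the composition covariate. At the limits of the study 27 genes were lower and 0 higher, with 69 and 8 under DESeq2, and 51 and 4 under quality weights. Without 1 library, genes called lower ran from 145 to 2273 and higher from 31 to 1178, the highest of both without EPR cKO 1, and genes past the limits of the study were 19 to 48 lower and 0 to 3 higher. The composition difference ran from −1.69 to −0.93, and passed 0.05 only without EPR cKO 1.

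The sign changed for 14 values, none of them called. Foxa1 was 0.0811 with quality weights, and ran up to 0.0431 without EPR fl/fl 3 and 0.00175 without EPR fl/fl 1. Hey1 (0.24) and Klf2 (0.00108) turned positive with the composition covariate. Scaled to epithelium markers, Klf4 (−0.11), Bhlha15 (−0.0600), Jag1 (−0.00364), Insm1 (−0.0130), Sox4 (−0.12), Ascl2 (−0.200), Hnf4a (−0.0341), Cdx2 (−0.0739) and Atf6b (−0.27) turned negative, as this scaling moved the median of all genes to −0.33. Where a setting changed a value otherwise, the cause was not tested.

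Whether equal replicate numbers pair the samples was checked by the correlation of their deviations from the group means. It ran from −0.24 to 0.34, with 2 of 6 over 0.1 and 2 of 6 control libraries closest to their own number. No consistent pairing was seen and the number was treated as a name, but so few values cannot exclude a pairing. With the replicate block, 1 factor (Atoh1, adjusted p = 0.0113) was called lower, 67 genes were called higher, and 4 were lower at the limits of the study. Spdef (adjusted p = 0.111) and Creb3l4 (adjusted p = 0.0611) lost their calls in that fit.

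With 6 animals per group, the 95% intervals of the log2 fold change of Foxa1 (−0.31 to 0.23), Klf4 (−0.02 to 0.49) and Bhlha15 (−0.22 to 0.90) leave room for changes of that size.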
